A study of Mus musculus with 8 samples.

Results

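Vascular smooth muscle cells of inguinal white adipose tissue (iWAT) made up 181 of 36370 cells kept from the stromal vascular fraction (SVF) of mice fed ad libitum (Ad-Lib) or only in 2 windows each night (TAN). They were chosen by their counts of unique molecular identifiers (UMIs, 1 per captured RNA molecule). A member had at least 3 UMIs of Myh11, at least 5 UMIs of Acta2 and Tagln together, and none of Pdgfra, Ptprc or Pecam1. Out of 44427 barcodes, cells were kept with 700 to 30000 UMIs, 200 to 8000 detected genes and no more than 10% mitochondrial UMIs. The SVF is the suspension left after collagenase digestion of the fat pad and removal of floating adipocytes. There were 4 Ad-Lib libraries (replicates 1, 3, 5 and 7) and 4 TAN libraries (replicates 2, 4, 6 and 8), all from mice labelled C57BL/6 (C57BL/6J in the study's text), captured with 10x Genomics 3′ v3 chemistry. The study describes them as male, with no genetic change in either group, and Ad-Lib mice always had food. Their age is uncertain, since the 8 weeks in the labels are younger than the mice of the study's text. No label says whether a library held 1 mouse or several. The study's text counts 4 mice in each group and speaks of animal replicates, while its methods also mention 4 samples in all. The p-values below therefore measure the spread between libraries.

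Vascular smooth muscle forms the contractile wall of arteries, arterioles and veins and sets how much blood a fat pad receives. Contraction follows calcium entry and release, which activate myosin light chain kinase. Noradrenaline, angiotensin, endothelin and ATP raise tone through receptors on these cells, while nitric oxide lowers it through cyclic GMP. Pericytes are the neighbouring mural cells on capillaries, and the border between both types is gradual. The transcription factor SRF with its partner myocardin drives many contractile genes through a DNA element called the CArG box.

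The CArG box is shown first as the known element of contractile genes, though most promoter windows here lacked it. Among the 17 of 20 contractile list genes with a RefSeq promoter window (250 bases before to 50 bases after the start, GRCm38.p6), Myl6, Myl9 and Vcl held an exact box. That is 17.6% of the genes matched, beside 1.81% of the 27025 genes with a window and 1.63% of all 32851 windows. Each line gives 30 bases, 5′ to 3′ on the gene's strand, with the box in capitals. The box has the same pattern on both strands, so a single search covered both.
Myl6: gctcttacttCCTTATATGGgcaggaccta
Myl9: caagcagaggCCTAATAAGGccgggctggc
Vcl: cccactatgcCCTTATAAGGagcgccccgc
These stretches lie at chr10:128493040-128493069 on the minus strand for Myl6, and on the plus strand at chr2:156775293-156775322 for Myl9 and chr14:20929161-20929190 for Vcl. The box of Myl6 began 50 bases before the start site, that of Myl9 161 bases and that of Vcl 227 bases before it. Of the genes called higher in smooth muscle than in pericytes, 3.67% of 327 matched genes held a box, as did 2.73% of 256 called lower and 2.36% of 2625 tested in all. A match describes these letters only and was not tested for binding.

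The 3 genes that define the gate were high in every library, which the rule guarantees, so they are given as a description. Myh11, the smooth muscle myosin heavy chain (chr16:14194535-14291372), stood at 2915, 2251, 3371 and 3163 counts per 1000000 UMIs (CPM) in Ad-Lib 1, 3, 5 and 7 and at 2725, 2042, 2148 and 3468 CPM in TAN 2, 4, 6 and 8. Acta2, smooth muscle alpha-actin (chr19:34241090-34255590), ranged from 5986 to 6625 CPM in Ad-Lib and from 4840 to 7610 CPM in TAN libraries. Tagln, an actin-binding protein of smooth muscle (chr9:45929619-45936058), ranged from 5302 to 5624 CPM in Ad-Lib and from 4572 to 6968 CPM in TAN libraries. For all 3 genes the groups overlapped. In lymphocytes the 3 genes summed to at most 4.37 CPM per library, and in pericytes to at most 201.6 CPM. Both of those gates allowed no Myh11 UMI, and the pericyte gate also limited Acta2 and Tagln. These low sums are thus partly fixed by the gates and are a description too.

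The markers of other cell types showed what else the droplets held. Pericyte markers had by far the largest sum, 5171 to 5961 CPM in Ad-Lib and 5523 to 8942 CPM in TAN libraries. In pericytes they summed to 12047 to 15582 CPM in Ad-Lib and 11847.5 to 14253 CPM in TAN libraries. Among them, Rgs5, Kcnj8, Abcc9 and Higd1b chose the pericytes. Of 9 lymphocyte markers only 3 had a UMI in the members, and the T cell genes Cd3d, Cd3e, Cd3g and Trbc2 and the B cell gene Ms4a1 were at 0. Of 8 epithelial and myoepithelial markers, 7 were at 0, Krt5, Krt14 and Oxtr among them. Myoepithelial cells also carry Acta2 and Myh11. Skeletal muscle markers summed to at most 46.0 CPM per library, with Myh4 and Ckm at 0. Endothelial markers summed to 61.3 to 227.9 CPM in Ad-Lib and 55.1 to 147.4 CPM in TAN libraries, beside 7770 to 9299 CPM in endothelial cells. Adipocyte markers summed to 69.9 to 328.1 CPM in Ad-Lib and 179.5 to 514.1 CPM in TAN libraries. Myeloid markers summed to 83.7 to 142.5 CPM in Ad-Lib and 0 to 71.8 CPM in TAN libraries, which did not overlap, with Ptprc at 0 by the rule. Schwann cell markers summed to at most 21.1 CPM, adipocyte progenitor markers to at most 201.1 CPM and red cell markers to at most 312.2 CPM.

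The exclusion of Pecam1 decided most of the losses. Of 367 barcodes that met the Myh11, Acta2 and Tagln limits, 186 were left out, 174 of them for a Pecam1 UMI, 12 for Ptprc and 10 for Pdgfra. Just inside the limit, 19 members had exactly 3 Myh11 UMIs, with a median of 14 UMIs of Acta2 and Tagln. Just outside it, 26 cells that met the other conditions had 2 Myh11 UMIs and a median of 10.5 UMIs of Acta2 and Tagln. Members carried a median of 7263 ± 740 UMIs in Ad-Lib and 7016 ± 922 UMIs in TAN libraries (SD, n = 4 each). Total UMIs per library ranged from 25320800 to 37140950. Over all cells kept, the median mitochondrial share was 1.76 to 2.38% in Ad-Lib and 2.69 to 3.64% in TAN libraries. Among members it was 3.66 to 5.84% and 3.68 to 5.15%. No member barcode occurred in a second library, and 5 to 16 barcodes were shared by each pair of libraries over all cells.

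Fewer vascular smooth muscle cells were recovered from TAN fat, but the difference did not exceed the spread between libraries. Ad-Lib 1, 3, 5 and 7 held 26, 26, 24 and 43 members, and TAN 2, 4, 6 and 8 held 23, 15, 8 and 16. As a share of all cells kept, these were 0.505%, 0.531%, 0.632% and 1.16% in Ad-Lib and 0.533%, 0.305%, 0.141% and 0.408% in TAN libraries. Only TAN 2 reached into the Ad-Lib range, and Ad-Lib 7 and TAN 6 lay at the ends. The means were 0.706% ± 0.305 and 0.347% ± 0.166 (SD, n = 4 each), a difference of -0.360 percentage points with an exact two-sided permutation p of 0.0857, or 0.171 after Benjamini-Hochberg adjustment over 2 shares. Without Ad-Lib 7 the difference was -0.210 points (exact permutation p = 0.114). The smallest p that the full design allows is 0.0286. That p was reached once every cell had been thinned to 2000 UMIs before the gate, where the shares were 0.754% ± 0.271 and 0.288% ± 0.147 (n = 4 each, exact permutation p = 0.0286). The exact 95% Clopper-Pearson interval of a single library, which covers counting error only, ran from 0.838 to 1.56% in Ad-Lib 7 and from 0.0611 to 0.279% in TAN 6.

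As a share of mural cells, smooth muscle did not differ between the groups beyond the spread either. Pericytes were 187 cells with at least 3 UMIs of Rgs5, at least 2 UMIs of Kcnj8, Abcc9 and Higd1b together, fewer than 5 of Acta2 and Tagln, and none of Myh11, Pdgfra, Ptprc or Pecam1. Smooth muscle cells were 44.1%, 40%, 68.6% and 63.2% of mural cells in Ad-Lib 1, 3, 5 and 7. They were 59.0%, 37.5%, 32% and 43.2% in TAN 2, 4, 6 and 8, so the groups overlapped. The means were 54.0% ± 14.1 and 42.9% ± 11.6 (SD, n = 4 each, exact permutation p = 0.2, adjusted 0.2). Lymphocyte numbers varied widely, with 116 to 806 lymphocytes in Ad-Lib and 274 to 1532 in TAN libraries by the Cd79a, Ms4a1 and Cd3 gate. As a share of cells without a Ptprc UMI, the leukocyte gene that lymphocytes and other immune cells carry, the members were 0.937% ± 0.346 and 0.526% ± 0.165 (SD, n = 4 each), a difference of -0.411 percentage points (exact permutation p = 0.0571). How many such cells the tissue held, and how well the digestion freed them, cannot be told apart.

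**Figure D1:**
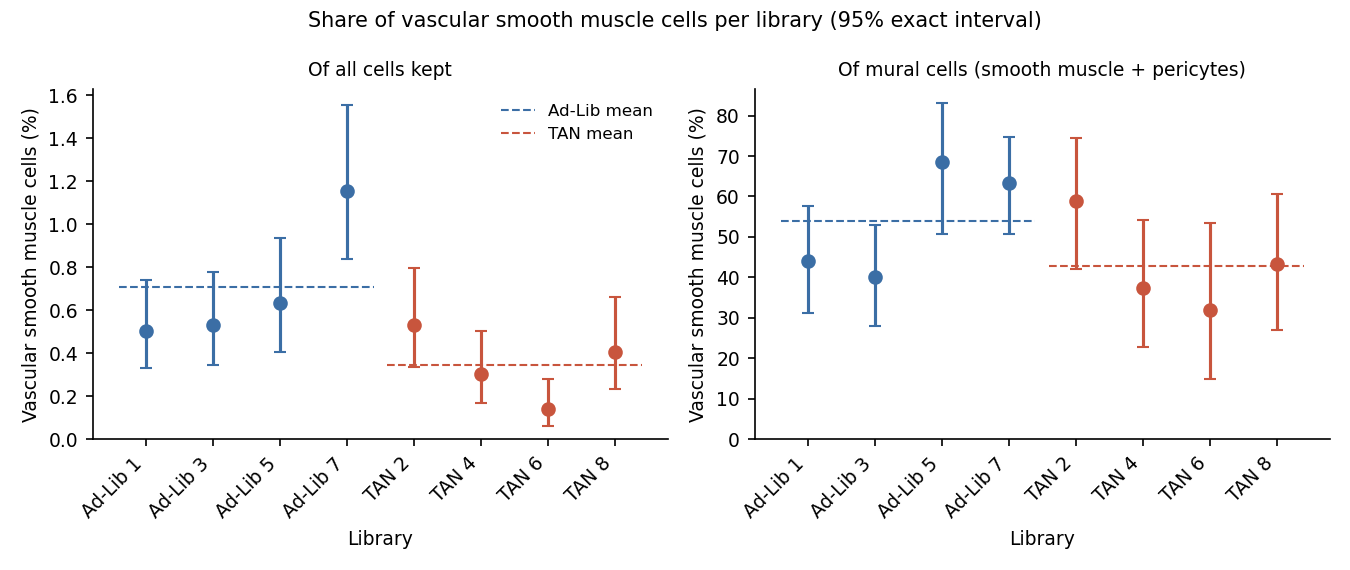
The left panel gives vascular smooth muscle cells as a percent of all cells kept and the right panel as a percent of mural cells, with 1 point per library, its exact 95% interval and dashed group means. Ad-Lib 7 stands highest on the left at 1.16% and TAN 6 lowest at 0.141%, and on the right the groups overlap between 40% and 59.0%.

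Compared with pericytes of the same libraries, the members carried the contractile machinery at several times the level. Of 3320 genes tested, 760 (22.9%) were called at an adjusted p under 0.05 and at least 1.5-fold, 421 (12.7%) higher and 339 (10.2%) lower in smooth muscle. TAN 6, with 8 members, fell below the 10 cells needed, so 4 Ad-Lib and 3 TAN libraries entered this fit. Both gates read the same cells, so these calls list the genes that go with the gate genes and are no independent test of the cell type. Pericytes were shallower, with median UMIs per library of 3211 to 3976 in Ad-Lib and 2662 to 4380 in TAN libraries. All fold changes here are from edgeR's quasi-likelihood test with the library as a block.

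Of 15 tested contractile genes outside the gate, 12 were higher in smooth muscle and none lower, with a median log2 difference of 1.62 beside -0.01 over all genes tested. Tpm2, a tropomyosin that lies along the actin filament, stood at 3526 ± 457 CPM in the members and 502 ± 157 CPM in pericytes (SD, n = 8), a log2 difference of 2.87 ± 0.13 (SE, adjusted p = 2.62e-21). Its lowest member library, TAN 8 at 2585 CPM, lay above the highest pericyte library at 782 CPM. Tpm1 differed by 2.79 ± 0.13, and Lmod1, a leiomodin that nucleates actin filaments, by 2.77 ± 0.23. Mylk, the kinase that phosphorylates myosin light chain, stood at 1118 ± 179 against 339 ± 62.9 CPM, and Myl6 and Myl9, myosin light chains with a CArG box above, at 3178 ± 462 against 1304 ± 169 CPM and 2093 ± 277 against 712 ± 142 CPM. Vcl, the anchor protein vinculin and the third gene with a box, was not called, at 346 ± 81.8 against 288 ± 61.7 CPM (log2 difference 0.33 ± 0.17, adjusted p = 0.160). Smtn and Pdlim7 were also not called. Cnn1, calponin, and Actg2, the gamma-actin of visceral smooth muscle, were sparse, with UMIs in 8.84% and 2.76% of members.

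Known regulators of this programme gave 2 calls. Mef2c, a transcription factor of muscle and vessels, was higher at 641 ± 217 against 264 ± 80.6 CPM (log2 difference 1.37 ± 0.18), as was Klf4, known for opposing the contractile state, at 369 ± 171 against 184 ± 89.3 CPM (1.17 ± 0.18). The other 3 of 5 tested regulators were not called. Myocd, which encodes myocardin, was found in 33.1% of members at 63.8 ± 34.9 CPM and had no UMI in pericytes. It did not pass the filter on low counts and was not tested here.

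Calcium handling separated both mural types through Pln. Phospholamban, its product, restrains the calcium pump of the sarcoplasmic reticulum. Pln stood at 279.5, 210.8, 122.6 and 241.0 CPM in Ad-Lib 1, 3, 5 and 7 and at 156.3, 63.2, 0 and 43.1 CPM in TAN 2, 4, 6 and 8. It was listed at 0 in all 8 pericyte libraries, which makes it at least 31.5-fold higher in smooth muscle against a floor of 3 counts over all pericytes (adjusted p = 1.51e-12). Atp2a2, which encodes that pump, was higher by 1.25 ± 0.18 on the log2 scale, as were the plasma membrane pump genes Atp2b4 (1.53 ± 0.22) and Atp2b1 (1.14 ± 0.25). Itpr1, the IP3-gated calcium channel, differed by 0.70 ± 0.23. In all, 5 of 11 tested genes of calcium handling and ion channels were higher and none lower. The L-type channel gene Cacna1c was not called (0.42 ± 0.27, adjusted p = 0.273).

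Among genes that set tone, 6 of 13 tested were higher and none lower. Ppp1r12b, a regulatory subunit of myosin phosphatase, stood at 298 ± 88.2 against 22.1 ± 17.0 CPM, a log2 difference of 3.67 ± 0.29 (adjusted p = 1.32e-13). Its relative Ppp1r12a differed by 1.21 ± 0.16. Pde3a, a phosphodiesterase for cyclic AMP, differed by 1.09 ± 0.19. Gucy1a1, a subunit of the nitric oxide receptor, did not reach 1.5-fold, at 840 ± 155 against 652 ± 117 CPM.

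The receptors for vasoactive signals split in direction, with 3 of 7 tested higher and 3 lower. P2rx1, the ATP-gated channel through which sympathetic nerves contract small arteries, averaged 123 ± 48.0 CPM and ranged from 31.6 CPM in TAN 4 to 165.3 CPM in TAN 6. It was at 0 in every pericyte library, at least 27.7-fold higher in smooth muscle (adjusted p = 4.82e-10). Npy1r, the receptor for the sympathetic co-transmitter neuropeptide Y, stood at 237 ± 94.9 against 68.9 ± 29.8 CPM (2.07 ± 0.23). Ramp1, a subunit of the receptor for the sensory vasodilator CGRP, stood at 80.2 ± 53.5 against 3.21 ± 6.01 CPM (4.05 ± 0.56). Agtr1a, the angiotensin II receptor, went the other way at 68.7 ± 24.7 against 299 ± 113 CPM (-1.95 ± 0.23), as did the endothelin receptor gene Ednrb (-2.13 ± 0.31) and the prostacyclin receptor gene Ptgir (-1.34 ± 0.49). Ednra, the other endothelin receptor gene, was not called, at 247 ± 38.6 against 178 ± 46.4 CPM (adjusted p = 0.0528). The alpha-1 adrenergic receptor genes were sparse: Adra1b had UMIs in 11% of members and Adra1a in 4.42%, and Adra1d had 0 UMIs in 181 members.

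Matrix genes split in direction. Of 16 tested, 4 were higher and 6 lower. Eln, elastin of the arterial wall, stood at 109 ± 45.2 against 3.62 ± 6.71 CPM (4.32 ± 0.52), and Itga8, an integrin chain of smooth muscle, at 72.8 ± 37.1 against 7.34 CPM (3.64 ± 0.59). Sparcl1, a secreted matrix protein, differed by 1.81 ± 0.12. Among basement membrane genes, Col4a1 was lower at 450 ± 150 against 853 ± 231 CPM (-1.01 ± 0.14), whereas the laminin chain gene Lama5 was higher at 74.3 ± 12.3 against 3.33 ± 4.73 CPM (3.87 ± 0.54). With a looser gate of 1 Myh11 UMI and 3 of Acta2 and Tagln, Col4a1 differed by -0.46, under 1.5-fold. Mgp, an inhibitor of calcification, was lower at 440 ± 316 against 1412 ± 591 CPM (-1.94 ± 0.23).

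The Notch pathway, which specifies mural cells, split likewise, with 3 of 8 tested genes higher and 2 lower. The receptor gene Notch3 did not differ beyond its spread, at 1050 ± 252 against 991 ± 164 CPM (log2 difference 0.12 ± 0.13, adjusted p = 0.551). Nrip2 stood at 216 ± 80.2 against 1.40 ± 3.96 CPM (6.53 ± 0.46), Nrarp, a feedback inhibitor, at 97.5 ± 29.4 against 7.70 ± 12.3 CPM and the target Hes1 at 634 ± 194 against 412 ± 115 CPM. After every cell was thinned to 2000 UMIs, Hes1 was no longer called (log2 difference 0.29, adjusted p = 0.389). Heyl, another target, was lower (-1.06 ± 0.26), as was Notch1 (-1.11 ± 0.23).

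Of genes tied to the synthetic state of smooth muscle, 4 of 5 tested were higher and none lower. S100a4, a calcium-binding protein, stood at 634 ± 338 against 14.7 ± 25.5 CPM (5.32 ± 0.35), Thbs1, a secreted glycoprotein, at 157 ± 86.5 against 20.4 ± 22.1 CPM and the filament protein Vim at 2436 ± 390 against 1137 ± 270 CPM. Spp1, osteopontin and a classic gene of that state, had 0 UMIs in 181 members.

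Secreted signals also told the types apart. Pdgfa, the platelet-derived growth factor A chain that stimulates progenitors with Pdgfra, stood at 471 ± 97.5 against 203 ± 80.6 CPM (1.40 ± 0.18). Ntf3, a neurotrophin for sensory and sympathetic nerves, stood at 97.4 ± 31.2 against 20.3 ± 22.9 CPM (2.21 ± 0.37) and the cytokine gene Il6 at 91.1 ± 56.2 against 8.41 ± 11.1 CPM (3.18 ± 0.53). Cxcl12, a chemokine, was lower at 435 ± 91.6 against 891 ± 234 CPM (-0.99 ± 0.15). With the looser gate it was under 1.5-fold (-0.54). Of insulin and leptin signalling genes, 4 of 7 tested were higher and 2 lower, but Igfbp7, one of the 4, lost its call in 5 of 14 alternatives and Pik3r1, one of the 2, in 6 of 14. Igfbp5, which binds insulin-like growth factors, stood at 1686 ± 570 against 406 ± 208 CPM (2.30 ± 0.17), while Igf1 itself was lower (-1.88 ± 0.41). Insr, the insulin receptor gene, had UMIs in 23.2% of members at 36.7 ± 12 CPM, and Lepr, the leptin receptor gene, in 2.21% at 2.95 ± 4.42 CPM.

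Lipid genes were lower in smooth muscle, 7 of 11 tested and none higher. Fabp4, a fatty acid carrier, was not called and stood at 12972 ± 3796 CPM in the members, 19634 ± 4922 CPM in pericytes, 46154 CPM in endothelial cells and 273 CPM in lymphocytes. Cd36, the fatty acid transporter, differed by -0.78 ± 0.15. It was under 1.5-fold with the looser gate (-0.54). Of 4 adipocyte markers tested, Cfd, Car3 and Retn were lower in smooth muscle, while Plin1 stood at 39.2 ± 29.1 against 12.4 ± 7.48 CPM and was not called (1.67 ± 0.66, adjusted p = 0.0541). Of 4 endothelial markers tested, Emcn, Kdr and Cldn5 were lower and Flt1 was not called (-0.02 ± 0.35, adjusted p = 0.972). Adipocyte markers summed to 1288 to 2750 CPM in Ad-Lib and 253.6 to 856.2 CPM in TAN pericytes. Their part in the lower calls was not tested.

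Mitochondrially encoded genes were higher in 7 of 12 tested, mt-Cytb by 0.83 ± 0.10, with none lower. Immediate early and heat shock genes gave 4 higher and 1 lower of 21, with Atf3 at 1.16 ± 0.13 and Fos not called at 4502 ± 1222 against 4706 ± 1441 CPM. That count is near the 22.9% called over all genes tested, and the list median was -0.08 beside -0.01. Immediate early and heat shock genes are known to respond to tissue digestion. Glucocorticoid and metallothionein genes gave 4 higher, Mt1 among them (0.75 ± 0.15), and 2 lower, Nr3c1 (the glucocorticoid receptor gene) among them (-0.99 ± 0.17), of 9 tested. After thinning to 2000 UMIs, Mt1 (0.41, adjusted p = 0.169), Errfi1 (0.31, adjusted p = 0.305) and Cdkn1a (0.55, adjusted p = 0.405) were no longer called, nor was Ccn1 (0.57, adjusted p = 0.0938). Thinning also brought Klf2 (0.54), mt-Cytb (0.58), mt-Atp6 (0.52), mt-Nd4 (0.53) and mt-Co3 (0.49) under 1.5-fold. Without TAN 4, Mt1 was also under it (0.53). With the looser gate mt-Atp6 (0.53), mt-Co3 (0.48) and Nr3c1 (-0.56) were under it too. Of 7 circadian clock genes tested, Hlf was lower and no other was called, and Hlf lost its call with no filter on low counts (adjusted p = 0.0629) and with the looser gate (adjusted p = 0.0683). Pericyte markers outside the gate were lower in 5 of 6, with Steap4 at 453 ± 147 against 1282 ± 268 CPM (-1.57 ± 0.15) and Pdgfrb at 558 ± 167 against 1052 ± 201 CPM (-0.90 ± 0.13).

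Outside the lists, the genes furthest above pericytes were absent or nearly absent there. Map3k7cl (111 ± 32.6 CPM), Rergl (90.6 ± 40.4 CPM), Adamtsl1 (104 ± 43.3 CPM), Pi15 (62.5 ± 42.8 CPM) and Olfr78 (79.0 ± 55.9 CPM) were listed at 0 in all 8 pericyte libraries, which makes them at least 24.97-, 20.5-, 23.4-, 14.1- and 17.8-fold higher in the members. Sorbs2, an adaptor of actin structures, and Pcp4l1 stood at 235 ± 72.4 and 365 ± 142 CPM against 0.906 ± 2.56 and 1.81 ± 5.12 CPM. Olfr78 encodes an olfactory receptor known for expression in blood vessels. The genes furthest below pericytes were Aqp1, Cyp1a1 and St8sia4, which were higher still in endothelial cells at 1786, 509 and 161 CPM. By DESeq2, Cyp1a1 was not called (adjusted p = 0.660). Pla1a, at 13.6 ± 8.50 CPM in members and 127 ± 33.5 CPM in pericytes, was at 4.30 CPM in endothelial cells.

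**Figure D2:**
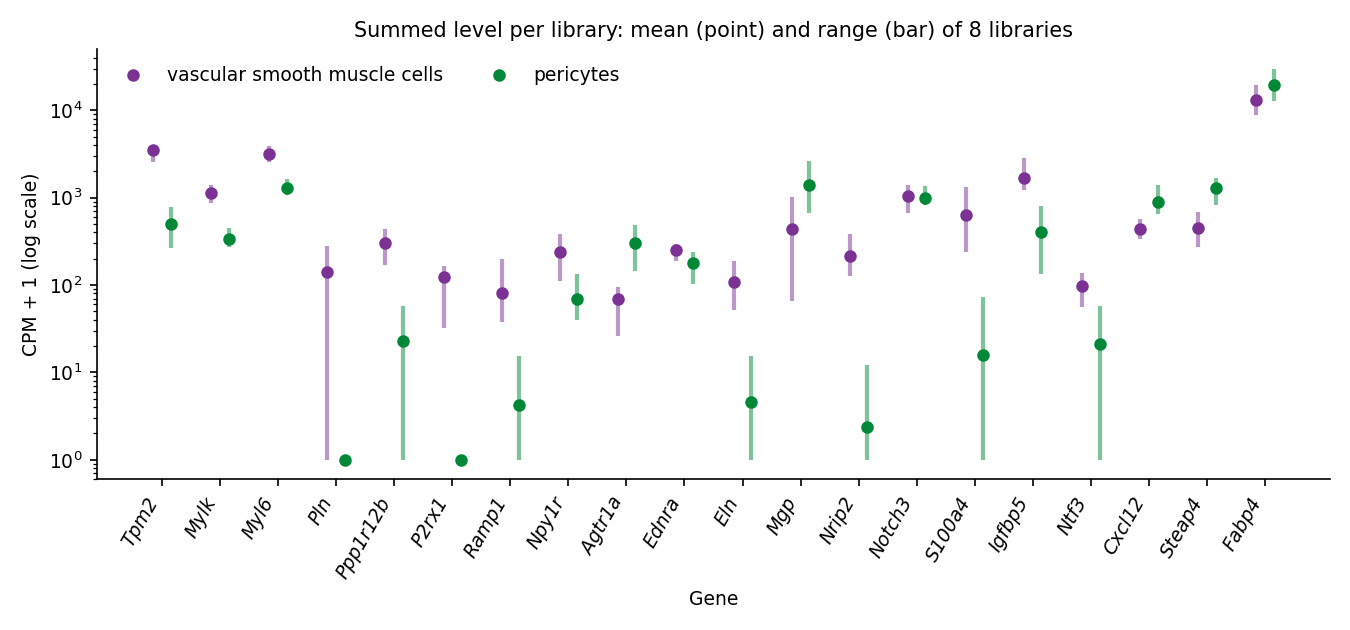
For 20 genes, the point is the mean and the bar the range over 8 libraries of the summed level (CPM + 1, log axis) in vascular smooth muscle cells and in pericytes. The bars of Tpm2, Mylk and Myl6 do not meet, Pln and P2rx1 sit at the floor in pericytes, and those of Notch3 and Ednra overlap.

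The members were not uniform, and Rgs5 was among the genes that varied most. Rgs5, a regulator of G protein signalling (chr1:169655501-169695813) that is abundant in pericytes, was absent from some members and high in others. After thinning each of 180 members with enough UMIs to 2000, 63 had 0 Rgs5 UMIs, 30 had 1 to 4 and 87 had 5 or more, up to 38. The limit of 5 was chosen after its values were seen, and 20 members had 3 to 6 UMIs, close to it, so the groups are ranges and not types, and no test was run between them. Among 1448 genes with a mean of at least 0.2 UMIs, Rgs5 had the third largest ratio of variance to mean, 11.3 beside a median of 1.09. Gm42418 (42.3), which overlaps ribosomal RNA, and Malat1 (17.5), a nuclear RNA, came before it.

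Members without Rgs5 held more of the contractile RNAs. Their mean Tpm2 was 10.7 UMIs per 2000 against 3.30 in the Rgs5-rich members, Tpm1 6.21 against 3.195 and Myl6 9.37 against 3.78, the same way in 8 of 8 libraries. Myh11, which chose the members, averaged 9 against 2.89 and is given as a description. Genes with the largest drop in the Rgs5-rich members included Pln (0.667 against 0), Pcp4l1 (1.27 against 0.184), Tesc (0.667 against 0.103), Mustn1 (1.81 against 0.356) and S100a4 (1.94 against 0.391). For Pcp4l1, Mustn1 and S100a4 this order held in 8 of 8 libraries. Many of the genes furthest above pericytes belonged to this side, such as Sorbs2 (0.952 against 0.184) and P2rx1 (0.476 against 0.0920).

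The Rgs5-rich members carried more RNA of several pericyte genes, which were picked after their values were seen. Steap4 averaged 0.0635 UMIs per 2000 in members without Rgs5, 1.60 in Rgs5-rich members and 2.70 in pericytes. Kcnj8, a potassium channel subunit of the K-ATP channel, averaged 0, 0.724 and 2.45, and its partner Abcc9 averaged 0.0635, 1.21 and 2.66, where the gate fixes the pericyte levels of both. Mgp averaged 0.0317, 1.59 and 2.58 and Vtn, vitronectin, 0.0317, 0.862 and 1.23. The pericyte marker Cspg4, also called NG2, went the other way, at 0.413 without Rgs5 and 0.276 in Rgs5-rich members. Meg3 (0.0476, 1.15 and 0.848), Ccl11 (0.0317, 0.644 and 0.493) and Fst (0.0159, 0.425 and 0.319) were highest in the Rgs5-rich members.

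At the limit of 5 UMIs after thinning, the share of Rgs5-rich members was higher in every TAN library, but the groups did not separate under every count. It was 46.2%, 34.6%, 41.7% and 46.5% in Ad-Lib 1, 3, 5 and 7 and 50%, 60%, 62.5% and 68.8% in TAN 2, 4, 6 and 8, so the groups did not overlap. At 3 or more UMIs before thinning, the groups overlapped, at 61.5 to 69.2% in Ad-Lib and 52.2 to 68.8% in TAN libraries. That count changed both the limit and the depth, and the part of each was not separated. The share without Rgs5 after thinning overlapped too, at 30.8 to 41.7% in Ad-Lib and 26.7 to 40.9% in TAN libraries. TAN 6 and TAN 8 had no member with 1 to 4 Rgs5 UMIs, on 8 and 16 members. Rgs5 itself, summed per library, did not pass the test between groups, at 2985, 2598, 3162 and 2946 CPM in Ad-Lib and 2920, 2652, 4333 and 5149 CPM in TAN libraries (log2 change 0.30 ± 0.20, adjusted p = 0.865).

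**Figure D3:**
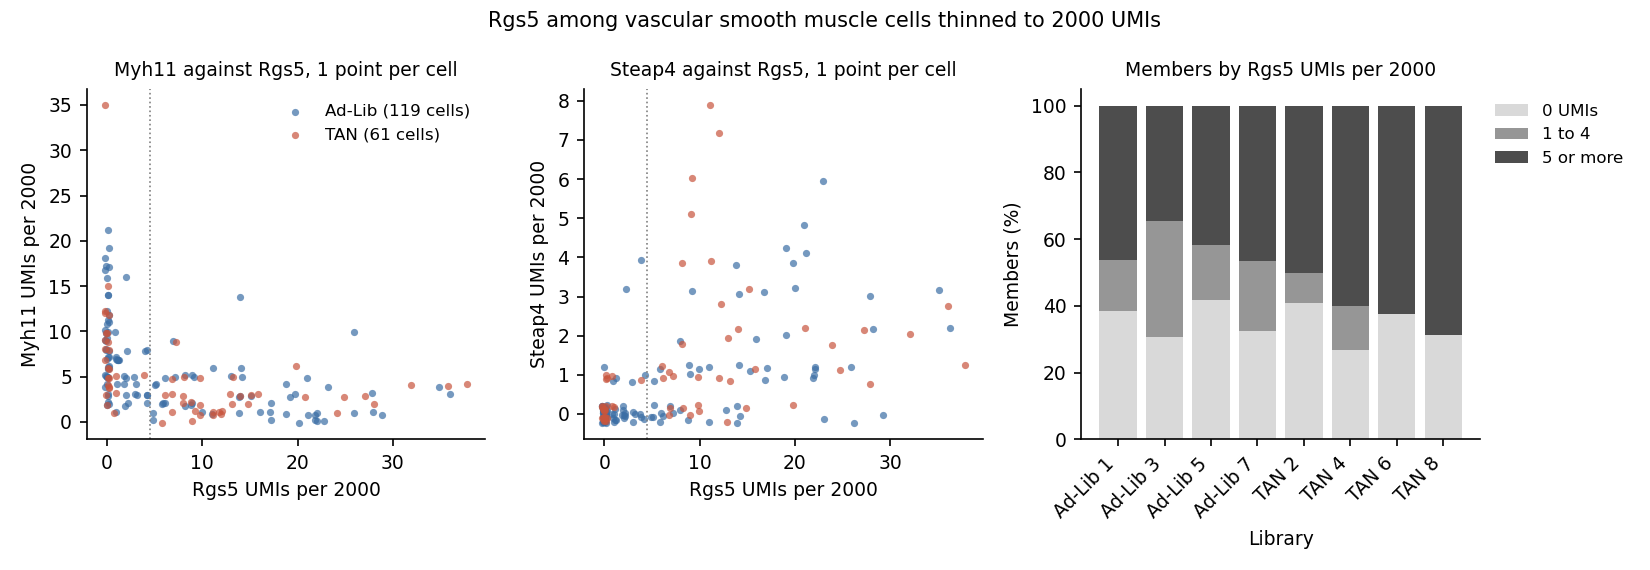
The left and middle panels plot Myh11 and Steap4 against Rgs5 in UMIs per 2000, 1 point per member and slightly jittered, and the right panel stacks each library's members by Rgs5 UMIs. Members at 0 Rgs5 reach the highest Myh11 counts, Steap4 is rare at 0 Rgs5 UMIs, and the dark segment (5 or more) is 34.6 to 46.5% in Ad-Lib and 50 to 68.8% in TAN libraries.

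Other variable genes spread in their own ways. Fabp4 averaged 25.1 UMIs per 2000 and was at 0 in 1 of 180 members, with library means from 19.3 (TAN 4) to 38.9 (TAN 6). Fos, at 9.29, ranged from 5.94 (TAN 8) to 14.3 (TAN 4) and Jun, at 4.77, from 2.50 to 7.13 in the same libraries. Cxcl1, a neutrophil chemokine, was at 0 in 74.4% of members, and the 18 members richest in it held 74.7% of its UMIs. Mgp was at 0 in 81.7%, and its top 18 members held 83.9%.

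TAN feeding was compared with Ad-Lib feeding within the members to ask which of their genes the diet regimen goes with. Of 2916 genes tested, 4 were called (0.137%), 3 higher (0.103%) and 1 lower (0.0343%) in TAN, by edgeR's quasi-likelihood test on UMIs summed per library. In all, 205 genes had an unadjusted p under 0.05. None of the 4 calls held in every alternative run. G0s2 lost its call in 10 of 19, Snai2 in 8 of 17, Tob2 in 8 of 18 and Thbd in 7 of 18. The fit used 4 Ad-Lib and 3 TAN libraries, and TAN 6 is given as a value beside it. The levels of 122 genes (4.18%) did not overlap between the 4 libraries of each group.

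Thbd, thrombomodulin, an anticoagulant surface receptor (chr2:148404466-148408188), was higher in TAN. It stood at 34.9, 51.3, 15.3 and 20.1 CPM in Ad-Lib 1, 3, 5 and 7 and at 72.6, 221.0, 165.3 and 172.3 CPM in TAN 2, 4, 6 and 8, a log2 change of 2.32 ± 0.42 (SE, adjusted p = 0.0318). The groups did not overlap, but few cells carried it. In TAN 2, 4, 6 and 8, 1 member each held 10 of 13, 13 of 21, 9 of 9 and 21 of 24 UMIs, while no Ad-Lib member held more than 5. The share of members with a Thbd UMI was 12.5 to 19.2% in Ad-Lib and 12.5 to 33.3% in TAN libraries. Each of those 4 TAN members had 18 to 45 Rgs5 UMIs and 0 to 7 UMIs of Cdh5, Flt1, Cldn5 and Vwf together, genes of endothelial cells, where Thbd averaged 150.0 CPM. In TAN 4 and TAN 6 the same member also held the most Rgs16 UMIs.

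Snai2, a zinc finger repressor of the Snail family (chr16:14705852-14709385), was also higher. It stood at 9.98, 11.4, 15.3 and 6.69 CPM in Ad-Lib and at 72.6, 73.7, 73.4 and 71.8 CPM in TAN libraries, in the same order as above (log2 change 2.75 ± 0.54, adjusted p = 0.0355). Here the UMIs were spread over cells: 4.65 to 12.5% of members in Ad-Lib and 26.1 to 43.8% in TAN libraries had one, with at most 3 in a cell. These are 43 UMIs in all.

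G0s2, an inhibitor of the triglyceride lipase ATGL (chr1:193272161-193273217), rose from 124.8, 119.7, 97.0 and 90.4 CPM in Ad-Lib to 301.5, 178.9, 220.3 and 229.8 CPM in TAN libraries (log2 change 1.2 ± 0.25, adjusted p = 0.0422). It was found in 32.6 to 50% of members in Ad-Lib and 47.8 to 62.5% in TAN libraries. In pericytes it did not pass the test (-0.12, adjusted p = 0.940), and the difference between both changes did not either (1.15 ± 0.35, adjusted p = 0.473). In members G0s2 was higher with Rgs5, at 0.494 UMIs per 2000 in Rgs5-rich members and 0.0635 in those without.

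Tob2, an antiproliferative protein of the BTG/TOB family (chr15:81848272-81858796), was lower in TAN. It fell from 149.7, 102.6, 245.2 and 234.3 CPM in Ad-Lib to 55.8, 31.6, 73.4 and 71.8 CPM in TAN libraries (log2 change -1.72 ± 0.34, adjusted p = 0.0355). Members with a Tob2 UMI made up 42.3 to 75% in Ad-Lib and 20 to 56.3% in TAN libraries.

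The genes next in order by p did not pass. Ccl11, the eosinophil chemokine eotaxin, stood at 114.8, 108.3, 15.3 and 50.2 CPM in Ad-Lib and at 67.0, 600.0, 624.3 and 258.5 CPM in TAN libraries (log2 change 2.00 ± 0.50, adjusted p = 0.228). In pericytes, where 5 of 1253 genes were called (0.399%), 1 higher (0.0798%) and 4 lower (0.319%), Ccl11 was the higher one with a log2 change of 2.05 (adjusted p = 0.000238). Rnase4 followed at 1.40 ± 0.34 (adjusted p = 0.228). Rcan2, an inhibitor of calcineurin, stood at 324.4, 148.2, 306.5 and 284.5 CPM in Ad-Lib and 122.8, 147.4, 110.2 and 136.4 CPM in TAN libraries (-0.98 ± 0.27, adjusted p = 0.233). Arid5a, an RNA-binding protein, changed by -1.11 ± 0.29, Olfr78 by -1.60 ± 0.43 and Limd1 by -0.91 ± 0.25, each with an adjusted p of 0.233. All Arid5a and Rcan2 values in TAN lay below all those in Ad-Lib.

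**Figure D4:**
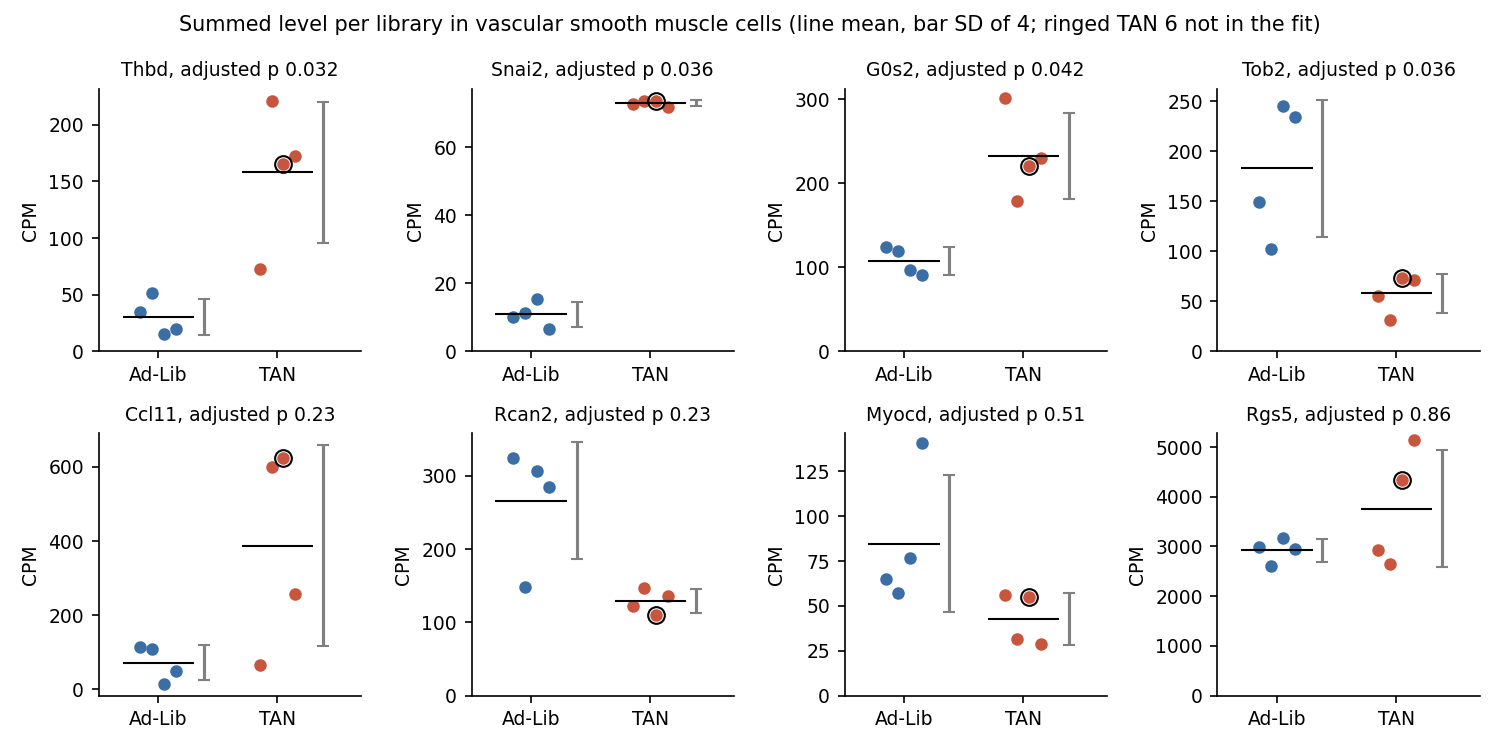
Each panel gives 1 gene's CPM in the members of each library, with the group mean as a line, its SD (n = 4) as a bar and TAN 6, which is not in the fit, ringed. Thbd, Snai2, G0s2 and Tob2 do not overlap between groups, Rcan2 and Myocd separate narrowly, at 147.4 and 148.2 CPM and at 55.8 and 57.0 CPM, and Ccl11 and Rgs5 overlap.

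No gene of any list fixed for this tissue was called between the groups, where 0.137% of all 2916 genes tested were. At that share, lists this short would hold few calls or none. The 14 contractile genes tested had log2 changes from -0.35 to 0.45 with a median of -0.01, beside 0.00 over all genes tested. Tpm2 changed by -0.07 ± 0.18 and Mylk by 0.02 ± 0.18. The lowest adjusted p in that list was 0.645. Myocd stood at 64.9, 57.0, 76.6 and 140.6 CPM in Ad-Lib and 55.8, 31.6, 55.1 and 28.7 CPM in TAN libraries (log2 change -1.09 ± 0.41, adjusted p = 0.507). Its groups lay apart by 1 narrow gap, between TAN 2 and Ad-Lib 3. Pln changed by -1.17 ± 0.35 (adjusted p = 0.277).

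Signalling and metabolic lists gave the same count of calls. The 6 insulin and leptin genes tested ranged from -0.90 to 0.15 (lowest adjusted p 0.290), and 3 circadian genes from -0.30 to 0.35 (lowest 0.973). Of 7 lipid genes, 5 had positive and 2 negative values, with Cd36 at 0.58 ± 0.20 (adjusted p = 0.449). Among 8 glucocorticoid and metallothionein genes the median was -0.38, with Cdkn1a, a cell cycle inhibitor, at 249.5, 159.5, 127.7 and 247.7 CPM in Ad-Lib and 117.3, 42.1, 36.7 and 93.4 CPM in TAN libraries (-1.12 ± 0.31, adjusted p = 0.243). In endothelial cells Cdkn1a was called lower (-1.30, adjusted p = 0.00336), where 1.94% of genes were called, 0.915% higher and 1.03% lower. The 13 genes that set tone ranged from -0.46 to 0.44, the 6 vasoactive receptors from -0.63 to 0.35, the 12 of calcium handling from -1.17 to 0.48 and the 16 matrix genes from -0.47 to 1.38.

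Pericyte markers stood higher in TAN members without a call, with 9 of 10 positive, a median of 0.32 and the lowest adjusted p 0.397 for Kcnj8 (1.05 ± 0.35). The share of members with 5 or more Rgs5 UMIs, given above, was also higher in TAN libraries. Genes were kept here that passed a low limit on mean UMIs after thinning, in members without Rgs5 or in Rgs5-rich ones. With an unadjusted p under 0.05, 89 of the genes kept were higher in TAN. Of these, 76 (85.4%) were higher in Rgs5-rich members than in those without Rgs5, and of 107 lower in TAN 82 were lower there. Of all 2812 tested genes so kept, 51.4% were higher with Rgs5. Both comparisons used the same members, pooled over libraries for Rgs5, and Rgs5-rich members were a larger share in TAN libraries. The overlap is thus partly built in and is no independent test. The part of the Rgs5 share in the 4 calls was not tested. Among members with 3 or more Rgs5 UMIs only, chosen after the data were seen, Thbd was called again (2.40 ± 0.41, adjusted p = 0.0107), G0s2 was not (1.29 ± 0.31, adjusted p = 0.103), and Snai2 and Tob2 did not pass the filter on low counts. That fit called 3 genes of 1791, the others being Palld (-1.75, adjusted p = 0.0112) and Dnajb1 (-3.28, adjusted p = 0.0107), both lower in TAN. The myeloid marker sum given above also separated the groups, and its part was not tested. In endothelial cells that sum separated them too, at 149.8 to 285.3 CPM in Ad-Lib and 107.7 to 123.7 CPM in TAN libraries. It did so in lymphocytes as well, while in pericytes and over all cells outside the members the groups overlapped.

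The looser gate also brought TAN 6 into the fit and gave 22 calls of 3609, 8 higher and 14 lower in TAN. The calls of the looser gate included Snai2 and Tob2 but neither Thbd nor G0s2. Named after their values were seen, the lower genes under the looser gate included Pln (-1.53), Pcp4l1 (-0.99), Npy1r (-1.07), Cdkn1a (-1.45) and Irs2, an insulin receptor substrate (-1.17), and the higher ones Ccl11 (2.06) and Fdps, an enzyme of sterol synthesis (2.01). Where Pecam1 UMIs were allowed, which brought in TAN 6 as well, 39 of 5622 genes were called. A stricter gate gave none, with 171 genes at an unadjusted p under 0.05. The count without Ad-Lib 7 or without TAN 8 was also 0, with 128 and 197 genes at an unadjusted p under 0.05. Without Ad-Lib 5 the 1 gene called was none of the 4, and without TAN 2 or TAN 4 only 1 of the 4 was kept. With the main gate and all 8 libraries, added after the data were seen, 4 of 2644 genes were called, the same 4.

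**Figure D5:**
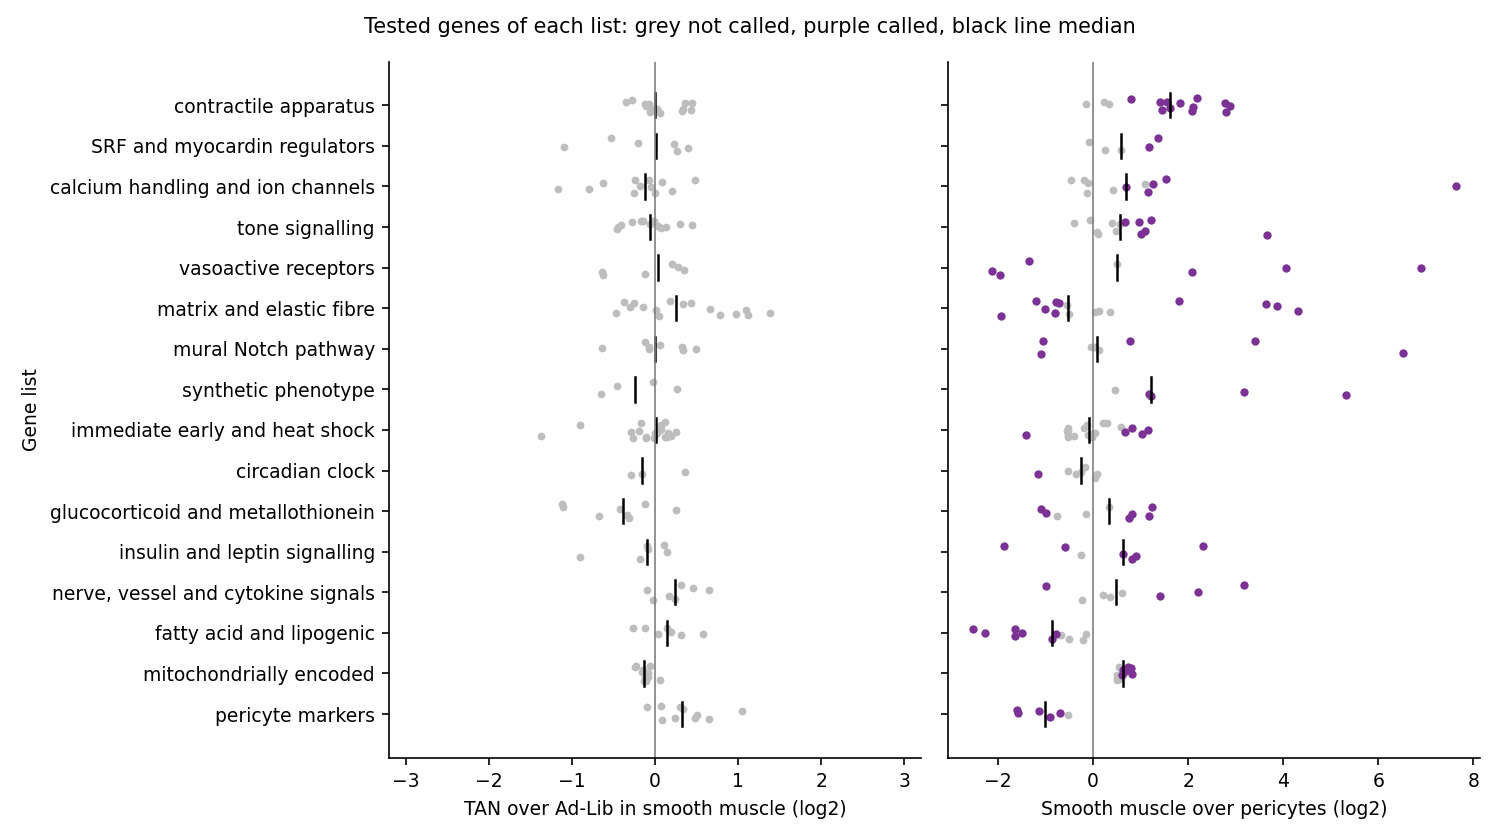
Each point is a tested gene of a list, placed by its log2 change TAN over Ad-Lib in smooth muscle (left) or its log2 difference between smooth muscle and pericytes (right), purple where called and with the list median as a line. No point is purple on the left, and the contractile median is 1.62 on the right. The value of a gene at 0 in pericytes, such as Pln, depends on the fit and is no bound.

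The TAN change differed between smooth muscle and pericytes for 3 of 3320 genes (0.0904%), all higher in smooth muscle, by edgeR's test of the diet by class term. For Mgp (chr6:136872435-136875823) the term was 1.92 ± 0.34 (adjusted p = 0.00418). In the members it stood at 64.9, 159.5, 653.8 and 237.7 CPM in Ad-Lib and at 323.9, 431.6, 624.3 and 1027 CPM in TAN libraries, which overlap, and its own change in neither class passed (1.12 ± 0.42 in smooth muscle, adjusted p = 0.506, and -0.58 in pericytes, adjusted p = 0.415). In TAN 4 and TAN 8, 1 member held 40 of 41 and 92 of 143 Mgp UMIs.

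Rgs16, a regulator of G protein signalling (chr1:153740349-153745468), had a term of 6.89 ± 1.36 (adjusted p = 0.0153). It stood at 74.9, 142.5, 15.3 and 40.2 CPM in Ad-Lib and at 189.9, 147.4, 569.2 and 100.5 CPM in TAN libraries, and in TAN 6 all 31 UMIs came from 1 member. In pericytes it had 29 UMIs in all, at 0 to 101.4 CPM in Ad-Lib libraries and at 0 in TAN 2, 4 and 8, so the size of its term depends on the fit and is no bound. Car3, a carbonic anhydrase abundant in adipocytes (chr3:14863512-14872523), had a term of 2.35 ± 0.51 (adjusted p = 0.0428). It stood at 108 ± 73.8 CPM in members and 585 ± 394 CPM in pericytes, where the adipocyte marker sum of TAN libraries lay wholly below that of Ad-Lib libraries. The part of adipocyte RNA in this difference was not tested. Car3 lost its call in 10 of 14 alternatives, RLE scaling among them, Rgs16 in 6 of 13 and Mgp in 4 of 14. DESeq2 called none of the 3, with 63 genes at an unadjusted p under 0.05. Without Ad-Lib 1 or without Ad-Lib 3 edgeR called none either, with 142 and 146 genes at an unadjusted p under 0.05, and without TAN 8 the 1 gene called was none of the 3.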

How the data were processed

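Droplet libraries of the SVF of 4 Ad-Lib and 4 TAN samples were used. The authors deposited raw UMI counts per gene and barcode, made with Cell Ranger on mm10 (GRCm38) from exonic reads. The submitters' processing notes name version 3.0.2 and the file headers 6.0.1. The counting annotation is not given in the sources used here. Coordinates came from GENCODE M21, in which 32158 of 32285 identifiers matched.

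Members, pericytes, endothelial cells and lymphocytes were taken by fixed UMI gates, with no doublet removal, while doublet scores would have dropped 1 member and markers of a second lineage 23. The UMIs of each class were added up by library for edgeR 4.0.16 (quasi-likelihood test, TMM, its filter on low counts) over all genes, with Benjamini-Hochberg adjustment. Libraries needed 10 cells. A call needed an adjusted p under 0.05 and 1.5-fold. Genes of the gates compared were not tested. Shares were compared by exact permutation over 70 assignments. CPM are UMIs per 1000000 of the class sum. Counting intervals are 95% and cover counting error only. DESeq2 1.42.0 was an alternative.

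The members, gates, lists and tests were chosen with earlier results of these data known. Named genes were the called genes and, up to 5 in each direction, those next by p between groups, the 10 largest differences in each direction between classes, the called and highest genes of each list, and the 10 with the largest spread among members. Genes named beyond this rule, such as those of the Rgs5 comparison, were chosen after their values were seen. On simulated data the diet fit of 3030 genes recovered 20.2% of 2-fold and 87.9% of 4-fold changes, with 7 false calls. The simulation gave every gene the same fixed dispersion and placed changes only in genes above a mean count. It therefore does not cover genes whose UMIs came mostly from single cells, such as Thbd.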

Additional observations from a re-analysis of the deposited data

Results flagged for a closer look

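Among 146 sets of 4 libraries, 6 held a library far from the other 3 by Dixon's test, and chance gives about 1 in 20. Of the Ad-Lib libraries, Limd1 was highest in Ad-Lib 5 at 439.3 CPM (the others 311.3 to 330.5), Sparcl1 lowest in Ad-Lib 3 at 2103 CPM (2688 to 2794), Nr3c1 lowest in Ad-Lib 7 at 154.0 CPM (184.7 to 189.0) and Steap4 lowest in Ad-Lib 7 at 274.5 CPM (383.1 to 398.9). In TAN 4, Ramp1 stood at 199.99 CPM (36.7 to 57.4 in the other TAN libraries) and Igfbp5 at 2821 CPM (1242 to 1379). None of these genes was called between groups.

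The TAN change was larger in smooth muscle than in pericytes by 1.92 (Mgp), 6.89 (Rgs16) and 2.35 (Car3) on the log2 scale, by a test of the difference itself. In each library 1 member held a large share of these UMIs, 32.0 to 61.5% of Mgp in Ad-Lib and 48.3 to 97.6% in TAN, and 33.3 to 53.3% of Rgs16 in Ad-Lib and 58.8 to 100% in TAN. For Car3 this share was 33.3 to 80% in Ad-Lib and 42.9 to 73.3% in TAN. The value for Rgs16 depends on the fit, since it was at 0 in the pericytes of TAN 2, 4 and 8.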

How the results depend on the processing

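No paired analysis was possible because Ad-Lib and TAN libraries carry no shared replicate numbers. Neither share and none of the named genes followed one by one (10 between groups, 71 against pericytes and 3 for the difference in TAN change) changed sign under any alternative run for it. The difference in the share of all cells passed the test only after thinning to 2000 UMIs (-0.466 percentage points) and ranged from -0.210 to -0.427 when 1 library was left out. The share of mural cells ranged from -6.17 to -16.4 points then, with no change of call.

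Instead of 4 genes between TAN and Ad-Lib members, 20 were called with no filter on low counts, 1 by DESeq2, 22 under the looser gate and 39 with Pecam1 UMIs allowed (the second chosen after seeing the data, both also admitting TAN 6), and 0 under the stricter gate or after thinning, with 171 and 61 genes at an unadjusted p under 0.05. Leaving out 1 library gave 0 to 10 calls: 0 without Ad-Lib 7 or TAN 8, 1 without Ad-Lib 5 (none of the 4), 2 without Ad-Lib 3 (both of the 4), 3 without TAN 4 and 10 without TAN 2 (1 of the 4 in each). Thbd lost its call in 7 of 18 alternatives, Snai2 in 8 of 17, G0s2 in 10 of 19 and Tob2 in 8 of 18. Against pericytes, 493 were called under the looser gate and 232 after thinning, where fewer genes (884) were tested, and 635 to 763 with 1 library left out. Of the calls against pericytes 55.4% were higher, beside 71.5% with no filter and 48.3% (112 higher, 120 lower) after thinning. Between groups 3 higher and 1 lower became 8 and 14 under the looser gate. The difference in TAN change gave 0 calls by DESeq2 (63 at an unadjusted p under 0.05), 6 under the looser gate and 0 to 3 with 1 library left out (1 without TAN 4 or TAN 8, the latter none of the 3). For the other changes the cause was not tested. With members whose droplets held markers of a second lineage left out, 3 genes were called, 2 of them among the 4. Members gave 1338185 UMIs in all, and the part of depth in the counts of calls was not separated from that of the number of libraries.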
